A study of Anthurium andraeanum with 18 samples.

Results

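The heat response shared by both plant materials was read from 18 leaf libraries of Anthurium andraeanum, an evergreen aroid grown for its flowers, by setting the 12 heated libraries against the 6 controls with the material as a term in the model. A gene belonged to the common response when it was called in that pooled comparison at a Benjamini-Hochberg adjusted p below 0.05 and when its change had the same sign in all 4 heated groups. Of 158487 assembled genes in the deposited table, 70024 had enough counts to be tested, and 33551 of those met both conditions. The 4 heated groups were MH 38 and Ken 38, sampled after 3 days at 38 °C by day and 33 °C by night, and MH 40 and Ken 40, sampled after 3 further days at 40 °C by day and 35 °C by night. The 40/35 °C plants had therefore passed through 38/33 °C before. The controls, MH control and Ken control, stood at 25 °C. Each group had 3 libraries. All plants were in full flower and stood in growth chambers with 12 h of light and 12 h of dark. The sources used here do not explain the names Ken and MH and do not give the time at which the controls were sampled, so plant age and hour of sampling cannot be told apart from the heat. The labels name biological replicates but do not tell whether each library came from its own plant, so a p-value measures only the spread among these libraries, which may be technical.

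Heat unfolds proteins, and plant cells answer by making chaperones, which hold or refold such proteins and whose genes are switched on by heat stress transcription factors. Leaves are also the site of photosynthesis, whose photosystems, Rubisco activation and membrane lipids are known to be sensitive to heat. Over days of heat, leaves can change pigment synthesis, sugar and nitrogen use and the hormones that govern growth and ageing.

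Levels are given as TPM, a transcript level scaled by gene length and by library total, and changes as log2 changes of TMM-scaled counts ± SE, heated over control of the same material. A difference of responses is MH minus Ken on the same scale. Rose and fell refer to an adjusted p below 0.05 in edgeR's quasi-likelihood test of the pooled contrast. Ratios of TPM are not equal to the fitted changes, which use TMM factors that ran from 1.53 in an MH 40 library to 0.684 in a Ken control. Unless stated, the heated libraries of each material all lay on 1 side of its 3 controls for every named gene, which the naming rule asked for in scaled counts. The libraries held 15845190 to 22867268 estimated counts. Genes without any description took 11.4% to 24.6% of the counts in the heated libraries and 8.42% to 9.60% in the controls, and the part of this shift in the results was not tested. A pair of libraries stood apart from their groups for many of the genes named here. Replicate 3 of MH 38 lay nearer to the controls, with 24.5 TPM of the hevein-like gene HEL against 355 and 407 TPM in replicates 1 and 2. Replicate 3 of MH control had raised small heat shock proteins, with a summed level of 16150 TPM against 4554 and 3026 TPM in the other MH controls.

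The common response took in 21618 rises, 30.9% of all tested genes, and 11933 falls, 17% of them. Most rises were in genes with no description, and most falls were in described genes. Of the 29143 tested genes with a description, 6365 rose in common (21.8%) and 8531 fell in common (29.3%). Of the 40881 without one, 15253 rose (37.3%) and 3402 fell (8.32%). The median pooled log2 change was -0.08 for described genes and 1.62 for the others. Common rises had a median length of 741 bases and common falls of 1236 bases, against 754 bases for all tested genes. Common described rises had a median length of 1150 bases and common described falls of 1543 bases, against 1294 bases for all tested described genes. The split between rises and falls depended on the scaling. Rises made up 42.7% of the common described genes with TMM factors, 48.4% with RLE size factors, 56.0% with TMM factors of the described genes and 69.2% with library totals alone. The median log2 change of described genes was 0.63 under library totals, so a gene list whose median lies near 0 can change sides with the scaling, and such medians are given under both scalings. A list's summed TPM is weighted towards its abundant members and can go another way than its median.

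The pooled contrast alone called 27304 genes higher (39.0%) and 13496 lower (19.3%) in heated leaves, and in 7249 of those 40800 genes at least 1 heated group moved the other way. It called 7823 described genes higher (26.8%) and 9518 lower (32.7%), and 19481 genes without a description higher (47.7%) and 3978 lower (9.73%). A same sign in all 4 groups, with no test, was found in 25056 genes above their controls (35.8%) and 13460 below (19.2%). A stricter reading, which asked for a call in each of the 4 heated groups on its own, left 5503 rises (7.86%) and 5796 falls (8.28%). Of described genes this reading held 2022 rises (6.94%) and 4596 falls (15.8%), and of genes without a description 3481 rises (8.51%) and 1200 falls (2.94%). In 6654 tested genes (9.5%) all heated libraries lay above all controls of their own material in both materials, and in 7485 (10.7%) all lay below. Changes of at least 4-fold in each of the 4 groups were seen in 7034 of the 21618 common rises and 2675 of the 11933 common falls. Among described genes they were seen in 1510 of the 6365 common rises and 1778 of the 8531 common falls, so the order of rises and falls differed. No count in any of the 6 controls was found for 2407 common rises, of which 386 were described.

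Ken and MH share no libraries, so their heat responses can be set side by side gene by gene. Among described genes larger shares of the falls than of the rises were called in both materials. More falls than rises were also called in each material to begin with, so these shares do not show a closer overlap of the falls. Of described genes, 7921 were called lower in both materials, which was 66.8% of the 11850 lower in MH and 81.6% of the 9712 lower in Ken. For genes called higher in both, the count was 3891, which was 46.5% of the 8370 higher in MH and 64.5% of the 6029 higher in Ken. Calls in opposite directions were rare, with 456 genes higher in Ken and lower in MH and 328 lower in Ken and higher in MH. Across the 29143 described genes Pearson's r between the responses was 0.68, given as a description because genes are not independent replicates. The size of the response was called different between the materials in 4189 of the 33551 common genes. Of the common rises 1412 were larger in MH (6.53%) and 674 were smaller (3.12%). Of the common falls 1609 were larger in MH (13.5%) and 494 were smaller (4.14%). Over all tested genes the difference was called with MH above Ken in 8.16% and below in 7.96%. Without MH 38 replicate 3 the count of common genes with a called difference was 7300, and without that library and MH control replicate 3 it was 6535.

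**Figure D1:**
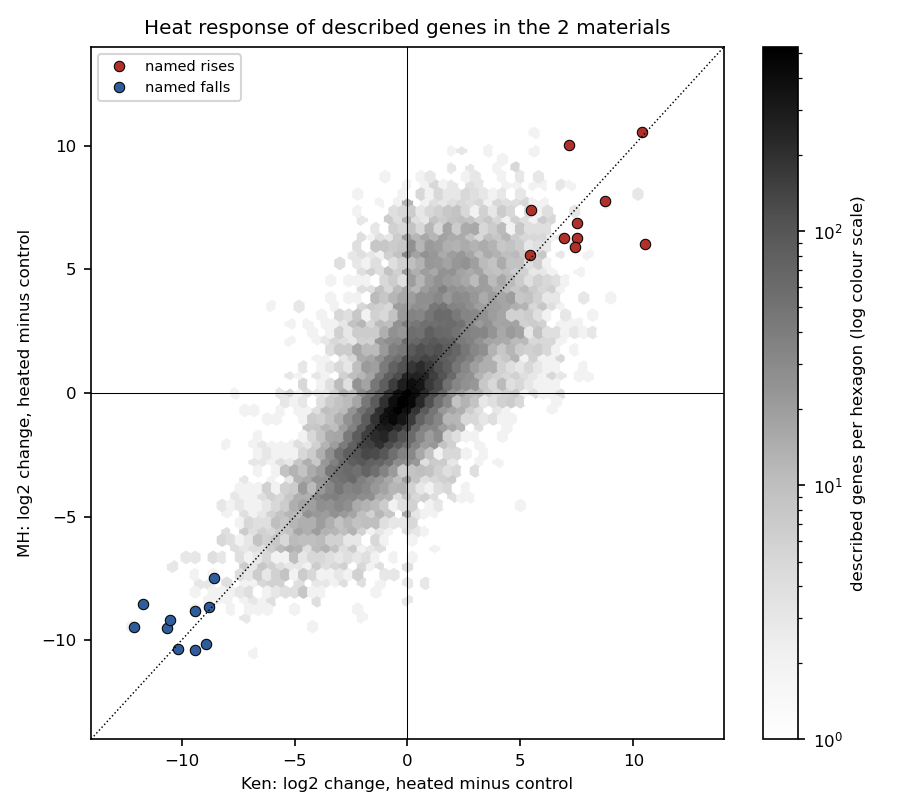
Log2 change of every described gene, heated minus control, in MH (vertical axis) against Ken (horizontal axis), with grey hexagons for the number of genes on a log colour scale, a dotted line of equal change, and red and blue points for the 10 largest named rises and the 10 largest named falls. The cloud runs along the diagonal with an r of 0.68, and the named genes lie in the upper right and lower left corners because they were chosen for large changes in both materials.

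A further fall in the last 3 days was called in a larger share of the common falls than a further rise in the common rises. From 38/33 to 40/35 °C, 24.5% of the common rises went higher and 4.63% went lower, beside 16.2% and 19.0% of all tested genes. Of the common falls, 46.7% went lower still and 5.26% went higher. Among described genes alone, 28.4% of the common rises went higher and 49.5% of the common falls went lower. Both sets were picked with the same heated libraries, and whether a step is as easily called in each set was not tested. The median change of the common described falls was -1.55 in MH 38, -2.52 in MH 40, -1.48 in Ken 38 and -1.83 in Ken 40. The median change of the common described rises was 2.12 in MH 38, 2.76 in MH 40, 1.76 in Ken 38 and 2.06 in Ken 40. Of all 29143 tested described genes, 5151 went higher and 8341 lower in this step, the background for the step counts of gene lists below.

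The largest common rise was in a gene of nitrogen storage. AS1 (TRINITY_DN36960_c2_g1), an asparagine synthetase that moves nitrogen into asparagine, had 447 to 654 TPM (median 526) in the 6 heated MH libraries, against 0.11, 0.3 and 0.22 TPM in the MH controls. In the 6 heated Ken libraries it had 782 to 1602 TPM (median 1334), against 0.47, 1.07 and 0.45 TPM in the Ken controls. No heated library came near any control, and the change was alike in every heated group, at 10.63 in MH 38, 10.47 in MH 40, 10.07 in Ken 38 and 10.72 in Ken 40. The pooled change was 10.49 ± 0.35 (adjusted p = 8.43e-14), and the difference between the materials was 0.15 ± 0.38 (adjusted p = 0.912).

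The other large rises joined genes of defence, cell signalling and small RNA function. HEL (TRINITY_DN49583_c3_g4), a hevein-like chitin-binding protein of the pathogenesis-related class, had 24.5 to 407 TPM (median 236) in heated MH leaves, against 1.98, 0.76 and 0.76 TPM in MH controls, and 231 to 1717 TPM (median 844) in heated Ken leaves, against 1.61, 2.81 and 3.02 TPM in Ken controls. Its change was 7.41 ± 0.73 (adjusted p = 3.64e-07). AGO16 (TRINITY_DN51453_c0_g2), an argonaute that binds small RNAs, had 2.87 to 23.1 TPM (median 13.6) in heated MH leaves, against 0.07, 0.08 and 0.03 TPM in MH controls, and 11.8 to 57.7 TPM (median 30.1) in heated Ken leaves, against 0.65, 1.04 and 0.39 TPM in Ken controls. On the log2 scale it changed by 6.32 ± 0.56 (adjusted p = 3.84e-08). CKI1 (TRINITY_DN62109_c0_g2), a histidine kinase known from cytokinin signalling in Arabidopsis, had 7.96 to 25.1 TPM (median 20.8) in heated MH leaves, against 0.23, 0.19 and 0.28 TPM in MH controls, and 6.73 to 20.9 TPM (median 10.5) in heated Ken leaves, against 0.18, 0.12 and 0.25 TPM in Ken controls. It changed by 5.56 ± 0.33 (adjusted p = 1.61e-10). The heated level of HEL was lowest in MH 38 replicate 3, and that of AGO16 too.

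Some of the largest named rises started from almost nothing. A gene described as basic 7S globulin (TRINITY_DN35156_c1_g2), a name from a soybean seed protein, had no count in any control, with 3.42 to 36.7 TPM (median 15.5) in heated MH and 5.06 to 134 TPM (median 52.6) in heated Ken leaves. Against a floor of 3 counts per library it was at least 6.88-fold higher in heated MH and at least 25.6-fold higher in heated Ken leaves. The hypothetical protein AXF42_Ash020749 (TRINITY_DN63122_c0_g2) also had no count in any control and was at least 40.0-fold higher in heated MH and at least 10.7-fold higher in heated Ken leaves. PMADS2 (TRINITY_DN54643_c0_g2), which in petunia is a floral organ identity factor, had 2.63 to 24.1 TPM (median 4.21) in heated MH and 4.16 to 25.4 TPM (median 6.17) in heated Ken leaves, with 3 counts in all MH controls together and 1 count in all Ken controls, too few for a fold. Autophagy-related protein 2 (TRINITY_DN62154_c1_g3), which moves lipids to growing autophagosomes, rose by 6.76 ± 0.73 (adjusted p = 6.37e-07) and fell back by 1.68 on the log2 scale between 38/33 and 40/35 °C (adjusted p = 0.00495). CASP-like protein 1D1 (TRINITY_DN46043_c1_g1), of a family of membrane scaffold proteins, rose by 6.999 ± 0.91 (adjusted p = 8.58e-06) and went on rising by 2.26 between the regimes (adjusted p = 0.00165).

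**Figure D2:**
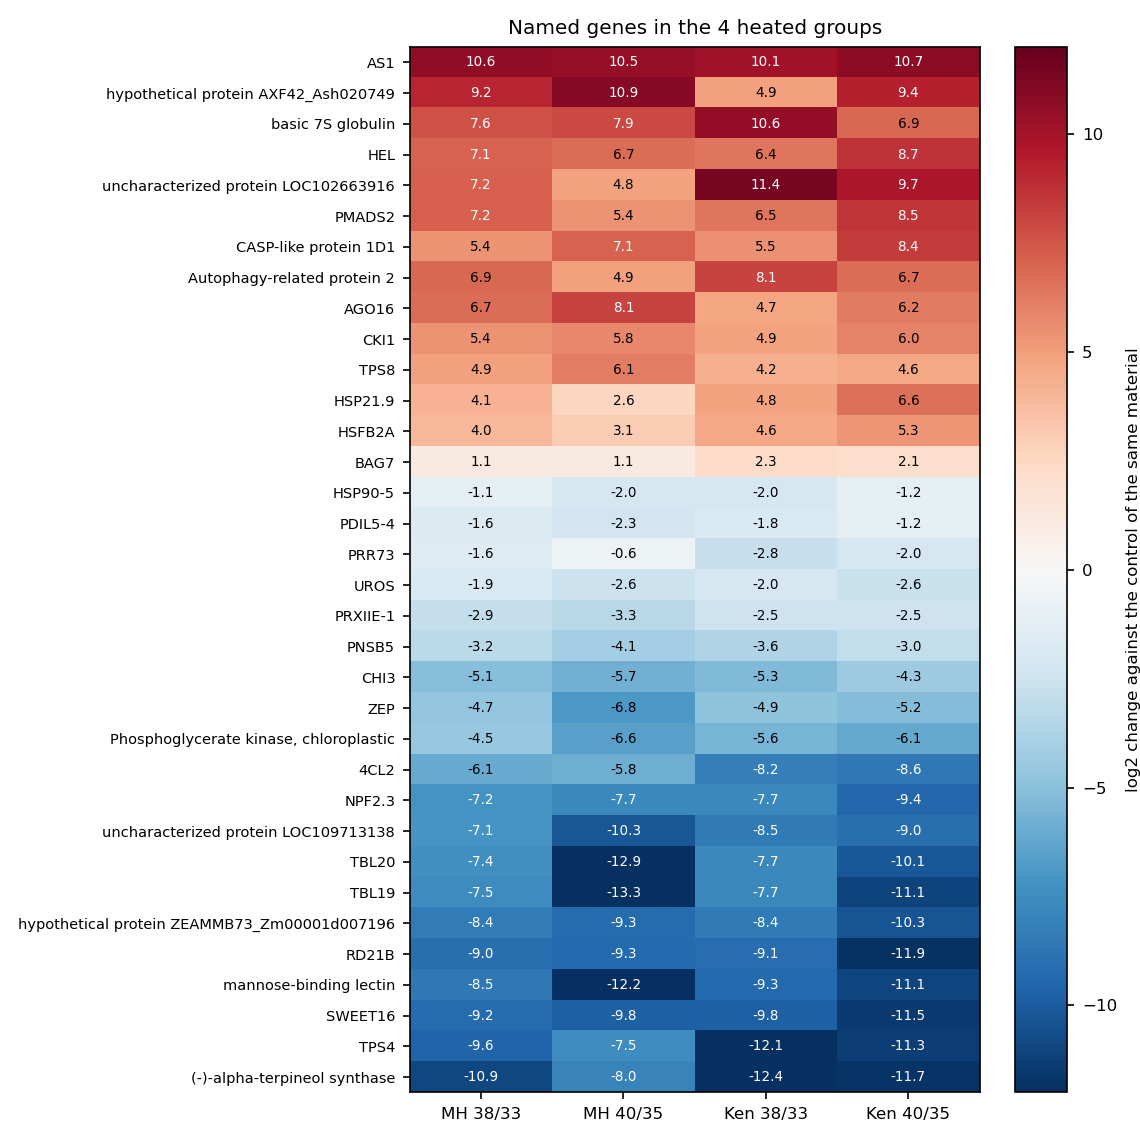
Log2 change against the control of the same material for the 34 named genes, as rows ordered by the pooled change, in the 4 heated groups as columns, with red for higher and blue for lower in heated leaves. Every row keeps 1 colour across the 4 columns, as the rule requires, and PRR73 in MH 40 is the palest cell with -0.58.

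Among the 3748 falls open to naming by the same rule, the largest included genes of scent terpene synthesis, cell wall acetylation, sugar and nitrate transport and a protease. (-)-alpha-terpineol synthase (TRINITY_DN52761_c0_g5), which makes a monoterpene scent compound, had 0 to 0.72 TPM (median 0.045) in heated MH leaves, against 62.4, 57.2 and 27.3 TPM in MH controls, and 0.26 to 1.43 TPM (median 0.73) in heated Ken leaves, against 3019, 2184 and 1839 TPM in Ken controls. This was a change of -10.83 ± 0.82 (adjusted p = 2.44e-08). Its level was much higher in unheated Ken than in unheated MH leaves, and in heated leaves of both materials it was close to 0. TPS4 (TRINITY_DN61283_c2_g1), a tricyclene synthase of the same enzyme family, changed by -10.32 ± 0.82 (adjusted p = 4.27e-08). Reads shared between these related sequences could not be separated.

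SWEET16 (TRINITY_DN53036_c0_g1), a sugar transporter that sits on the vacuole in Arabidopsis, had 0 to 0.53 TPM (median 0) in heated MH leaves, against 29.5, 14.6 and 9.51 TPM in MH controls, and 0 to 0.38 TPM (median 0.04) in heated Ken leaves, against 93.5, 121 and 125 TPM in Ken controls. Its pooled log2 change was -10.08 ± 0.58 (adjusted p = 2.59e-10). RD21B (TRINITY_DN43361_c0_g1), a papain-like cysteine protease, changed by -9.62 ± 0.53 (adjusted p = 1.61e-10). A mannose-binding lectin (TRINITY_DN49586_c1_g7), a carbohydrate-binding storage and defence protein of many monocots, changed by -9.64 ± 0.84 (adjusted p = 1.37e-07). NPF2.3 (TRINITY_DN50990_c0_g3), of the nitrate and peptide transporter family, had 0.54 to 1.01 TPM (median 0.64) in heated MH leaves, against 71.6, 98.4 and 68.4 TPM in MH controls, and 0.09 to 0.91 TPM (median 0.17) in heated Ken leaves, against 79.1, 99.97 and 79.05 TPM in Ken controls. The log2 change was -7.88 ± 0.34 (adjusted p = 2.37e-12). TBL19 (TRINITY_DN39718_c0_g1) and TBL20 (TRINITY_DN39718_c0_g3), of a family that acetylates cell wall polysaccharides, changed by -8.53 ± 0.88 (adjusted p = 1.06e-06) and -8.39 ± 0.72 (adjusted p = 8.08e-08). They belong to 1 assembly cluster and may share reads. TBL19 fell by a further 4.59 between 38/33 and 40/35 °C (adjusted p = 1.48e-07).

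Small heat shock proteins, which hold unfolded proteins until they can be refolded, had a higher median change than the other lists of folding proteins. Of 31 tested members 9 rose in common (29.0%) and 4 fell (12.9%), beside 21.8% and 29.3% of all described genes, with a median pooled change of 1.32. The median was 0.87 in MH 38, -0.28 in MH 40, 1.71 in Ken 38 and 3.67 in Ken 40, so it lay below 0 in 1 of the 4 heated groups, and 2 members were called higher in each of the 4 groups on its own. Their summed level was 6774 to 41040 TPM (median 23110) in heated MH leaves, against 4554, 3026 and 16150 TPM in MH controls, and 33370 to 55890 TPM (median 41710) in heated Ken leaves, against 4312, 2064 and 2262 TPM in Ken controls. Ken heated libraries lay far above all Ken controls, whereas the lowest MH 40 libraries overlapped MH control replicate 3. With 1 library left out at a time the count of common rises ran from 7, without Ken 38 replicate 2, to 14, without MH control replicate 3, and the median from 1.10 to 2.23. With library totals alone 15 rose.

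HSP21.9 (TRINITY_DN54503_c1_g1) had 61.9 to 549 TPM (median 231) in heated MH leaves, against 6.31, 4.74 and 29.1 TPM in MH controls, and 437 to 1895 TPM (median 1029) in heated Ken leaves, against 18.3, 9.75 and 9.54 TPM in Ken controls. The pooled change was 4.59 ± 0.73 (adjusted p = 7.17e-05). Its rise was 4.14 in MH 38, 2.56 in MH 40, 4.84 in Ken 38 and 6.61 in Ken 40. HSP18.2 (TRINITY_DN60740_c1_g6), chosen like the further example genes below after its values had been seen, had 514 to 3322 TPM (median 1834) in heated MH leaves, against 38.7, 16.4 and 325 TPM in MH controls, and 1409.7 to 3501 TPM (median 2250) in heated Ken leaves, against 19.3, 15.2 and 8.85 TPM in Ken controls. Its pooled change was 4.44 ± 0.91 (adjusted p = 0.000783), and its response was smaller in MH, with a difference of -4.001 ± 1.04 (adjusted p = 0.021). The high MH control is replicate 3, which the lowest heated MH library exceeded in TPM but not in scaled counts, and its part in that difference was not tested.

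HSP70 chaperones, which refold proteins with ATP, and their BAG partners had 16 of 49 tested members rising (32.7%) and 8 falling (16.3%), with a median of 0.84 that was 1.61 under library totals. The median was 0.46 in MH 38, -0.39 in MH 40, 1.12 in Ken 38 and 1.78 in Ken 40. SCE70 (TRINITY_DN48362_c0_g2), described as an HSP70 of the chloroplast envelope, had 122 to 671 TPM (median 308) in heated MH leaves, against 11.1, 4.41 and 38.8 TPM in MH controls, and 277 to 869 TPM (median 415) in heated Ken leaves, against 9.50, 15.7 and 8.76 TPM in Ken controls. Its change was 4.18 ± 0.58 (adjusted p = 1.44e-05). BAG7 (TRINITY_DN42909_c1_g1), which in Arabidopsis acts in the endoplasmic reticulum stress response, rose by 1.60 ± 0.22 (adjusted p = 5.9e-06) and BAG1 (TRINITY_DN55901_c0_g3) fell by 3.81 ± 0.74 (adjusted p = 0.000472). HSP90 chaperones, which mature client proteins such as kinases and receptors, had 10 of 28 members rising (35.7%) and 5 falling (17.9%), with a median of 0.11 that was 0.74 under library totals and -0.08 as the mean of the 4 changes in the model of 6 group means. It was -0.27 in MH 38, -0.50 in MH 40, 0.38 in Ken 38 and 1.04 in Ken 40, which is below 0 in both MH groups and above 0 in both Ken groups. Mitochondrial HSP90-6 (TRINITY_DN56007_c0_g3) rose by 1.67 ± 0.25 (adjusted p = 2.32e-05) and cytosolic HSP90-1 (TRINITY_DN47497_c0_g1) by 3.25 ± 0.79 (adjusted p = 0.00263), with heated and control MH libraries overlapping. Chloroplast HSP90-5 (TRINITY_DN63194_c1_g1) fell by 1.52 ± 0.21 (adjusted p = 8e-06). HSP90-5 had 11.3 to 29.6 TPM (median 18.4) in heated MH leaves, against 29.4, 32.1 and 31.0 TPM in MH controls, so that its TPM overlapped in MH although its scaled counts did not.

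Heat stress transcription factors, which bind heat shock elements and switch chaperone genes, had 6 of 23 members rising (26.1%) and 3 falling (13.0%). HSFB2A (TRINITY_DN39789_c1_g1), a class B factor without a typical activation domain, had 24.6 to 56.3 TPM (median 30.7) in heated MH leaves, against 2.21, 0.93 and 2.15 TPM in MH controls, and 36.3 to 80.9 TPM (median 45.2) in heated Ken leaves, against 0.8, 1.63 and 1.01 TPM in Ken controls. On the log2 scale it changed by 4.26 ± 0.37 (adjusted p = 1.67e-08). HSFA1A (TRINITY_DN63993_c0_g10), which in Arabidopsis and tomato belongs to the master activators, fell by 2.07 ± 0.30 (adjusted p = 1.49e-05). A heat shock factor-binding protein (TRINITY_DN38236_c1_g2), which restrains these factors, fell by 1.59 ± 0.21 (adjusted p = 5.44e-06). Under library totals HSFA1A and the binding protein kept the sign and call of their pooled change.

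Other folding and repair lists split between rises and falls. Hsp101 and Clp proteins, which pull aggregates apart or feed proteases, had 11 of 39 members rising (28.2%) and 16 falling (41.0%). DnaJ co-chaperones had 17 of 84 rising (20.2%) and 29 falling (34.5%), and chaperonins and prefoldins 3 of 43 rising (6.98%) and 14 falling (32.6%). Endoplasmic reticulum folding genes had 4 of 31 rising (12.9%) and 5 falling (16.1%). The medians of these 4 lists were -0.21, -0.12, -0.06 and -0.34 with TMM factors. With library totals they were 0.49, 0.60, 0.64 and 0.38, so their direction flips with the scaling. The endoplasmic reticulum folding median was -0.71 in MH 38, -1.02 in MH 40, -0.28 in Ken 38 and 1.06 in Ken 40. The summed level of that list was 2354 to 2692 TPM in MH 38 and 1228 to 1787 TPM in MH 40, against 1744 to 3129 TPM in MH controls. In heated Ken leaves it was 1821 to 4946 TPM, against 1296 to 1374 TPM in Ken controls. The summed level of DnaJ genes went one way, with 3786 to 5287 TPM (median 4871) in heated MH leaves, against 2814, 2106 and 2406 TPM in MH controls, and 4241 to 5275 TPM (median 4699) in heated Ken leaves, against 2360, 2349 and 2250 TPM in Ken controls, and every heated library lay above the controls of its material. AERO1 (TRINITY_DN58283_c1_g2), which oxidises protein disulfide isomerase, rose by 1.15 ± 0.19 (adjusted p = 6.36e-05), and PDIL5-4 (TRINITY_DN57494_c0_g1), a protein disulfide isomerase, fell by 1.71 ± 0.19 (adjusted p = 7.07e-07).

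**Figure D3:**
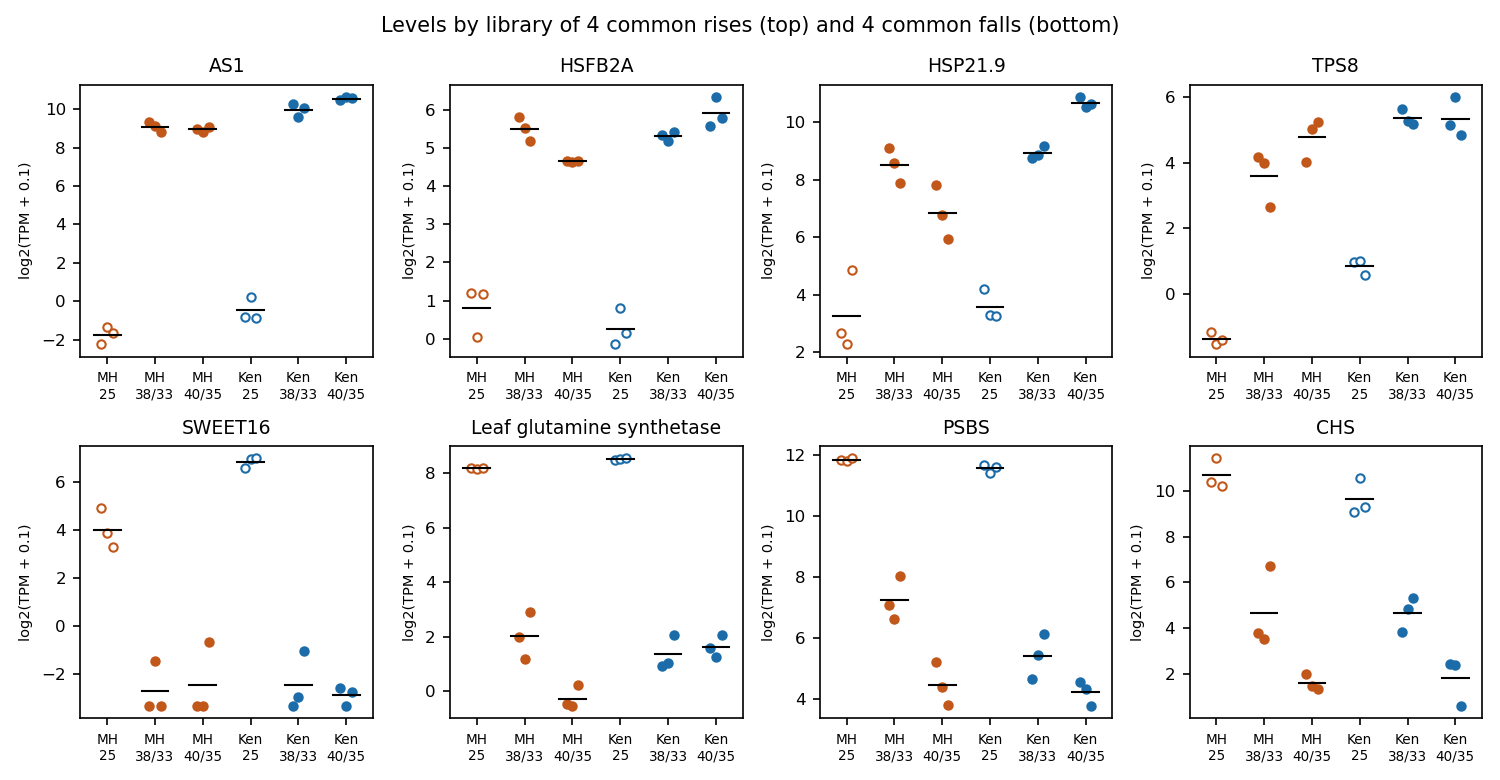
Level of 4 common rises (AS1, HSFB2A, HSP21.9, TPS8) and 4 common falls (SWEET16, leaf glutamine synthetase, PSBS, CHS) as log2(TPM + 0.1) in every library, by material and regime from 25 °C to 40/35 °C, with open points for controls, filled points for heated libraries and a line at the mean of the 3 libraries. In each panel all heated points of a material lie on 1 side of its controls, and for HSP21.9 the third MH control is the highest at 29.1 TPM.

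**Figure D4:**
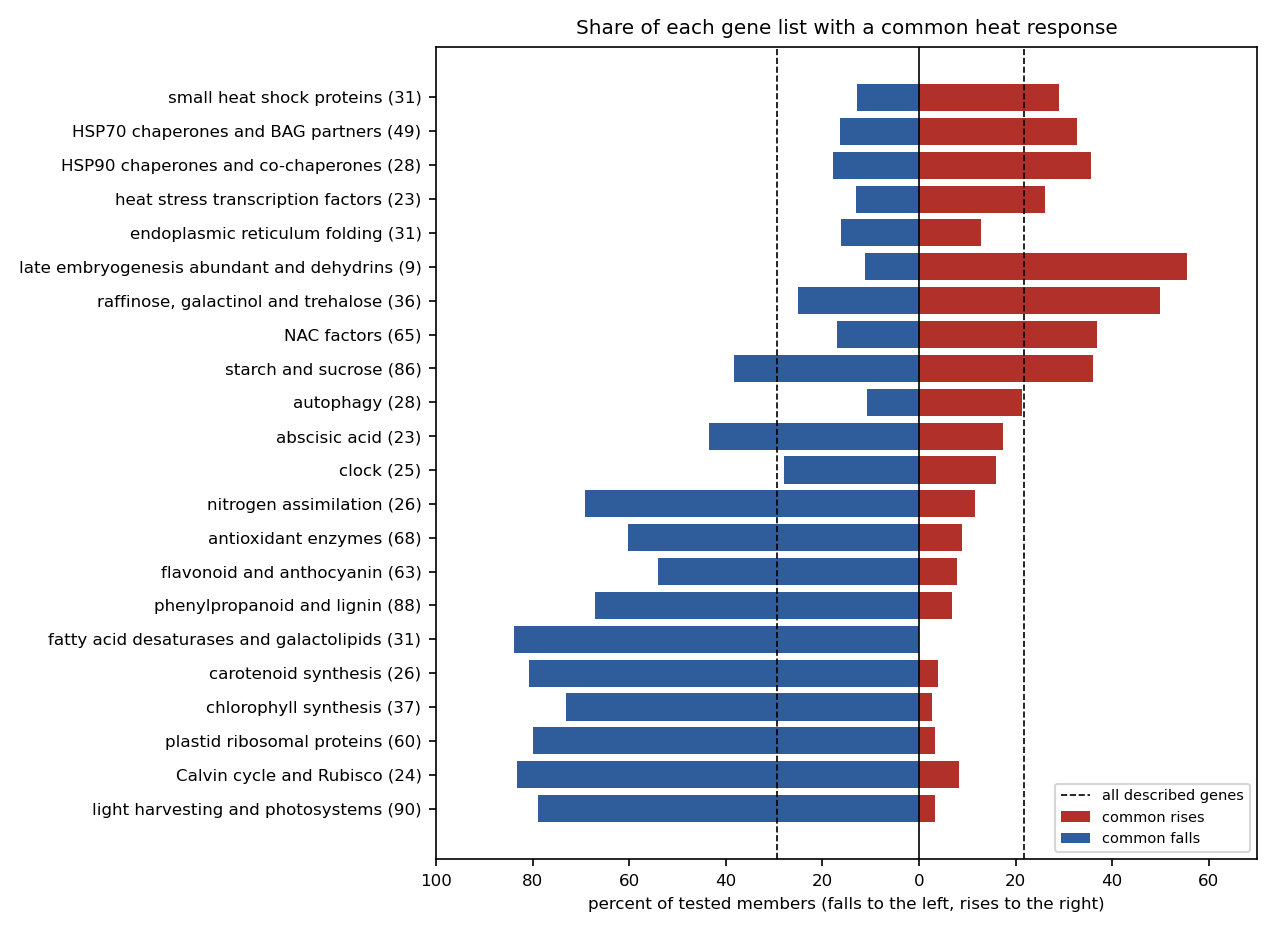
Percent of the tested members of 22 gene lists that rose in common (right, red) or fell in common (left, blue), with the number of tested members after each name and dashed lines at 21.8% and 29.3%, the shares of all described genes. The small heat shock protein, HSP70, HSP90, trehalose and dehydrin lists reach further to the right than the line, the endoplasmic reticulum folding list stops short of it at 12.9%, and the photosynthesis, pigment and lipid lists further to the left.

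Photosynthesis genes fell together, in both materials and further with each step. Of 90 tested genes of light harvesting and the photosystems 71 fell in common (78.9%) and 3 rose, with medians of -3.21 in MH 38, -6.43 in MH 40, -2.37 in Ken 38 and -4.80 in Ken 40. The medians of all described genes were -0.08 in MH 38, -0.29 in MH 40, -0.07 in Ken 38 and -0.10 in Ken 40. Their summed level was 1454 to 37120 TPM (median 2849) in heated MH leaves, against 163000, 138300 and 156600 TPM in MH controls, and 2902 to 29220 TPM (median 13580) in heated Ken leaves, against 105300, 103300 and 125700 TPM in Ken controls. No heated library reached a control, and the highest MH value was that of MH 38 replicate 3. Between 38/33 and 40/35 °C 70 of the 90 fell further and 1 rose. With library totals 64 fell in common and the median was -2.77.

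Genes of light capture, electron flow and carbon fixation were among the falls. PSBS (TRINITY_DN34753_c3_g1), the photosystem II protein that dissipates excess light as heat, had 13.9 to 264 TPM (median 68.3) in heated MH leaves, against 3643, 3582 and 3808 TPM in MH controls, and 13.7 to 70.8 TPM (median 24.6) in heated Ken leaves, against 3301, 2734 and 3158 TPM in Ken controls. It changed by -6.57 ± 0.58 (adjusted p = 1.28e-07). PNSB5 (TRINITY_DN48360_c0_g3), a subunit of the NDH complex of cyclic electron flow, changed by -3.42 ± 0.22 (adjusted p = 3.74e-10). RBCS (TRINITY_DN40113_c2_g3), the small subunit of Rubisco, had 62.9 to 2593 TPM (median 219) in heated MH leaves, against 16330.2, 15829 and 15759 TPM in MH controls, and 503 to 2296 TPM (median 1268) in heated Ken leaves, against 24629, 21303 and 25558 TPM in Ken controls. This was a change of -4.998 ± 0.65 (adjusted p = 1.11e-05). The chloroplast phosphoglycerate kinase (TRINITY_DN60542_c0_g3) changed by -5.51 ± 0.38 (adjusted p = 1.75e-09).

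Of 24 tested genes of the Calvin cycle and Rubisco 20 fell (83.3%) and 2 rose, with a median of -3.44. Chlorophyll synthesis fell in 27 of 37 genes (73.0%) with 1 rise and a median of -2.12, and UROS (TRINITY_DN40823_c3_g1), an early enzyme of the tetrapyrrole ring, changed by -2.24 ± 0.17 (adjusted p = 4.33e-09). Carotenoid synthesis fell in 21 of 26 genes (80.8%) with 1 rise and a median of -2.31. Plastid ribosomal proteins, which translate chloroplast genes, fell in 48 of 60 genes (80.0%) with 2 rises and a median of -2.30. Their summed level was 682 to 1822 TPM (median 1021) in heated MH leaves, against 4918, 4626 and 4731 TPM in MH controls, and 1340 to 1631 TPM (median 1401) in heated Ken leaves, against 4938, 4239 and 5396 TPM in Ken controls.

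Mesophyll, xylem and epidermis markers mostly fell, whereas guard cell and phloem markers were divided. Of 47 mesophyll marker genes, which include antenna and Rubisco genes of the lists above, 34 fell and 1 rose, with a summed level of 682 to 32510 TPM (median 1806) in heated MH leaves, against 167300, 144000 and 160500 TPM in MH controls, and 2180 to 20930 TPM (median 10290) in heated Ken leaves, against 107500, 104700 and 125200 TPM in Ken controls. Their levels were high in all 6 controls, which are labelled as leaves. Xylem markers fell in 17 of 22 genes, epidermis markers in 20 of 35 with 3 rises, guard cell markers in 5 of 10 and phloem markers in 3 of 7 with 1 rise. The median pooled change was -1.16 for guard cell markers and 0.28 for phloem markers. The summed phloem markers were 50.7 to 88.8 TPM (median 83.3) in heated MH leaves, against 95.8, 108 and 105 TPM in MH controls, and 81.3 to 110.3 TPM (median 90.9) in heated Ken leaves, against 106, 87.8 and 105 TPM in Ken controls, so that heated and control libraries overlapped in Ken. In leaf pieces of many cell types, fewer cells of a type and less RNA per cell cannot be told apart, and the part of cell makeup in the falls was not tested.

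Most nitrogen assimilation genes fell while asparagine synthetase rose. Of 26 tested nitrogen genes 18 fell in common (69.2%) and 3 rose (11.5%), with a median of -2.83, and their summed level was 980.3 to 1643 TPM (median 1067) in heated MH leaves, against 6576, 6879 and 5808 TPM in MH controls, and 1360 to 2896 TPM (median 2205) in heated Ken leaves, against 7120, 7771 and 7001 TPM in Ken controls. As a share of all counts, which is not scaled by gene length and which includes AS1, the list made up 0.288% to 0.319% in MH 38 and 0.342% to 0.397% in MH 40, against 0.470% to 0.528% in MH controls. In Ken it made up 0.345% to 0.494% in Ken 38 and 0.771% to 0.822% in Ken 40, against 0.545% to 0.594% in Ken controls, so that this share was higher in Ken 40 than in Ken controls. The chloroplast leaf isozyme of glutamine synthetase (TRINITY_DN63860_c2_g1), which takes up the ammonium of photorespiration and nitrate reduction, had 0.59 to 7.31 TPM (median 1.61) in heated MH leaves, against 293, 284 and 288 TPM in MH controls, and 1.82 to 4.13 TPM (median 2.60) in heated Ken leaves, against 359.8, 367 and 370.4 TPM in Ken controls. Its change was -7.29 ± 0.43 (adjusted p = 3.24e-10). FdGOGAT (TRINITY_DN62876_c0_g1), the partner enzyme that makes glutamate, changed by -2.45 ± 0.16 (adjusted p = 4.64e-10), the cytosolic isozyme GLN1-1 (TRINITY_DN51420_c1_g1) by -4.94 ± 0.48 (adjusted p = 2.82e-07) and the nitrate reductase NIA1 (TRINITY_DN58787_c0_g1) by -6.29 ± 1.12 (adjusted p = 0.000247). NIA1 was listed at 0 or close to it in Ken 38 and MH 40, with changes of -6.39 in MH 38, -11.50 in MH 40, -10.53 in Ken 38 and -3.90 in Ken 40.

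**Figure D5:**
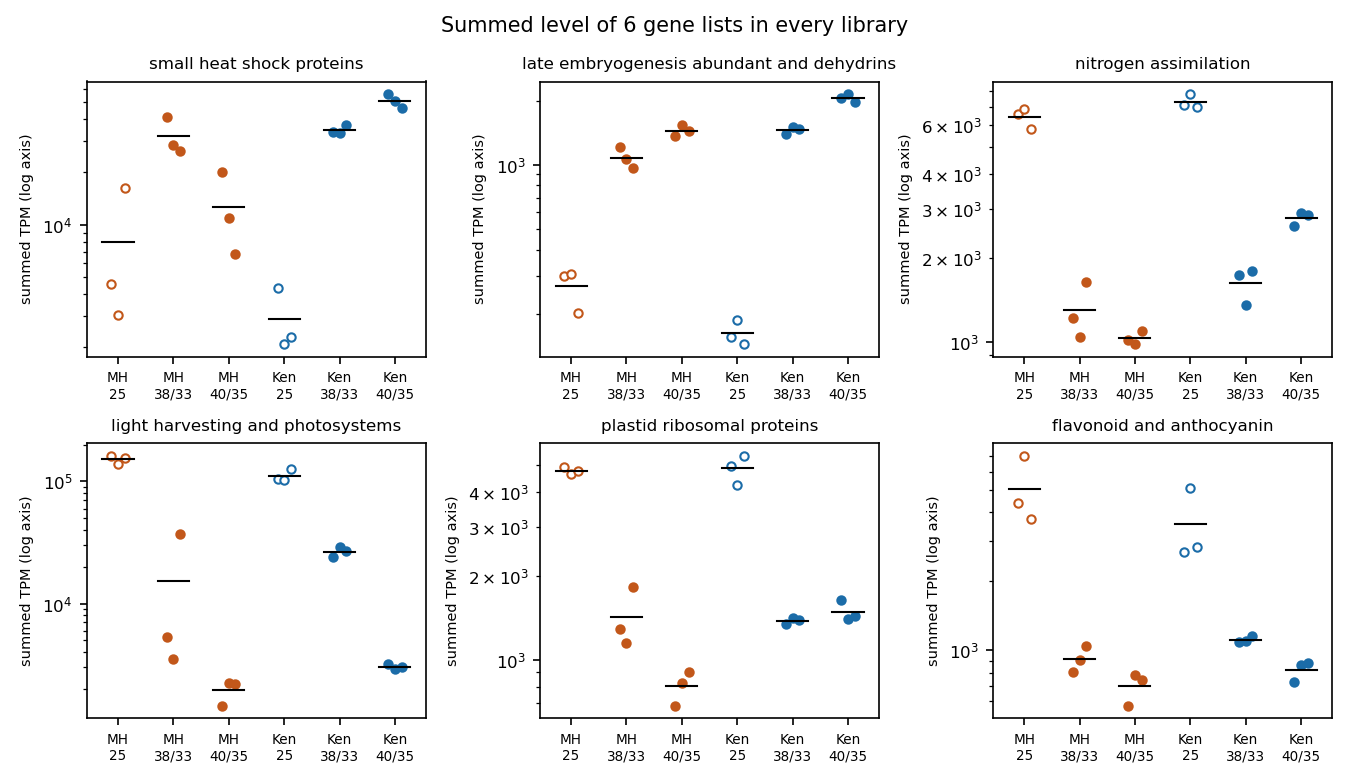
Summed TPM of the members of 6 gene lists in every library on a log axis, by material and regime from 25 °C to 40/35 °C, with open points for controls, filled points for heated libraries and lines at group means. Small heat shock proteins and late embryogenesis abundant proteins lie higher in heated leaves and the other 4 lists lower, with MH control replicate 3 the 1 high control for small heat shock proteins at 16150 TPM.

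Antioxidant enzymes were mostly lower in heated leaves. Of 68 tested members 41 fell in common (60.3%) and 6 rose (8.82%), with a median of -1.20. Catalase CAT3 (TRINITY_DN61517_c0_g1), which breaks down hydrogen peroxide, had 4.70 to 126 TPM (median 13.6) in heated MH leaves, against 706, 736 and 711 TPM in MH controls, and 68.7 to 129.6 TPM (median 94.2) in heated Ken leaves, against 1366, 1022 and 1085 TPM in Ken controls. Its pooled log2 change was -4.65 ± 0.54 (adjusted p = 2.67e-06). SODCP (TRINITY_DN63358_c3_g1), the chloroplast copper-zinc superoxide dismutase, changed by -5.19 ± 0.56 (adjusted p = 1.12e-06) and the chloroplast peroxiredoxin PRXIIE-1 (TRINITY_DN41924_c0_g1) by -2.79 ± 0.18 (adjusted p = 4.64e-10). The alternative oxidase AOX1A (TRINITY_DN50846_c0_g2), which lets mitochondria pass electrons to oxygen without making much ATP, went the other way. It had 45.8 to 143 TPM (median 76.2) in heated MH leaves, against 1.63, 0.21 and 0.23 TPM in MH controls, and 20.7 to 121 TPM (median 56.7) in heated Ken leaves, against 2.86, 1.42 and 1.72 TPM in Ken controls. The log2 change was 5.05 ± 0.63 (adjusted p = 4.36e-06). The list of respiration genes that holds it had 58 of 106 members falling (54.7%) and 5 rising, with a median of -0.79 that was -0.10 under library totals. The summed level of the respiration list was 4000 to 4500 TPM in Ken 40 and 2057 to 2152 TPM in Ken 38, against 3179 to 3654 TPM in Ken controls.

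Phenylpropanoid and pigment synthesis fell. Of 88 tested genes of phenylpropanoid and lignin synthesis 59 fell (67.0%) and 6 rose, with a median of -1.73, and of 63 flavonoid and anthocyanin genes 34 fell (54.0%) and 5 rose (7.94%), with a median of -1.50. Chalcone synthase CHS (TRINITY_DN57836_c0_g1), the first step to flavonoids, had 2.44 to 104 TPM (median 7.66) in heated MH leaves, against 1335, 2732 and 1199 TPM in MH controls, and 1.43 to 39.8 TPM (median 9.88) in heated Ken leaves, against 538, 1527 and 628 TPM in Ken controls. The pooled change was -5.90 ± 0.48 (adjusted p = 2.81e-08). The highest heated value was again that of MH 38 replicate 3. CHI3 (TRINITY_DN41010_c0_g1), described as a probable chalcone isomerase, changed by -5.09 ± 0.34 (adjusted p = 5.15e-10). ANR (TRINITY_DN46350_c0_g1), which leads to condensed tannins, changed by -5.50 ± 0.87 (adjusted p = 9e-05), with a further fall of 4.27 between the regimes (adjusted p = 5.48e-06). 4CL2 (TRINITY_DN54782_c0_g4), a ligase at the entry to lignin and flavonoids, changed by -7.10 ± 0.48 (adjusted p = 6.37e-10), and it fell less in MH, with a difference of 2.42 ± 0.75 (adjusted p = 0.0381). By count of genes, wall and surface lists moved likewise. Of 120 cell wall loosening and pectin genes 60 fell and 10 rose, and of 93 cuticle genes 52 fell (55.9%) and 5 rose. The summed level of the cell wall list was 3839 to 4093 TPM in Ken 38, above the 3175 to 3774 TPM of Ken controls. In Ken 40 it was 2740 to 3237 TPM, overlapping these controls. In heated MH leaves it was 644.9 to 2903 TPM, against 4010 to 5797 TPM in MH controls.

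Sugar genes moved in both directions. Of 36 tested genes of raffinose, galactinol and trehalose synthesis, compounds that protect proteins and membranes or signal sugar status, 18 rose in common and 9 fell (25.0%), with a median of 1.23. The trehalose phosphate synthase TPS8 (TRINITY_DN39583_c0_g2) had 6.10 to 38.1 TPM (median 17.02) in heated MH leaves, against 0.34, 0.24 and 0.27 TPM in MH controls, and 28.8 to 64.4 TPM (median 37.4) in heated Ken leaves, against 1.87, 1.91 and 1.38 TPM in Ken controls. Its change was 4.93 ± 0.40 (adjusted p = 8.06e-09). GOLS1 (TRINITY_DN38499_c0_g2), a galactinol synthase that starts the raffinose path, fell by 6.39 ± 0.51 (adjusted p = 2.16e-08). Starch and sucrose genes were evenly divided, with 31 of 86 rising and 33 falling (38.4%) and a median of 0.17 that was 0.90 under library totals. CIN1 (TRINITY_DN34630_c1_g3), a cell wall invertase that splits sucrose, had 91.3 to 381 TPM (median 229) in heated MH leaves, against 15.2, 20.9 and 19.7 TPM in MH controls, and 135 to 744 TPM (median 412) in heated Ken leaves, against 39.6, 36.1 and 32.3 TPM in Ken controls. On the log2 scale it changed by 3.15 ± 0.43 (adjusted p = 1.02e-05). WAXY (TRINITY_DN49568_c0_g1), which makes amylose in starch grains, fell by 3.91 ± 0.59 (adjusted p = 4.42e-05), and the hexose carrier STP13 (TRINITY_DN37961_c0_g2) rose by 2.78 ± 0.41 (adjusted p = 1.76e-05).

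Late embryogenesis abundant proteins, which shield proteins and membranes during water loss, rose in 5 of 9 tested genes (55.6%) and fell in 1 (11.1%), with a median of 2.14. Their summed level was 961 to 1534 TPM (median 1285) in heated MH leaves, against 301, 308 and 201 TPM in MH controls, and 1391 to 2147 TPM (median 1737) in heated Ken leaves, against 155, 188 and 144 TPM in Ken controls. The dehydrin COR410 (TRINITY_DN51367_c1_g6) had 259 to 453 TPM (median 364) in heated MH leaves, against 81.6, 98.5 and 64.02 TPM in MH controls, and 635 to 746 TPM (median 670.4) in heated Ken leaves, against 61.2, 77.2 and 57.9 TPM in Ken controls. It rose by 2.14 ± 0.24 (adjusted p = 7.78e-07), and its rise was smaller in MH, with a difference of -1.50 ± 0.21 (adjusted p = 2.99e-05). LEA5 (TRINITY_DN34389_c0_g5) rose by 3.75 ± 0.58 (adjusted p = 4.29e-05).

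Most desaturase and galactolipid genes fell. Of 31 tested fatty acid desaturases and galactolipid genes, which set the unsaturation and make-up of chloroplast membranes, 26 fell in common (83.9%), with a median of -2.11. FAD7 (TRINITY_DN37345_c2_g1), the chloroplast omega-3 desaturase, had 2.81 to 17.4 TPM (median 9.44) in heated MH leaves, against 66.4, 99.8 and 70.7 TPM in MH controls, and 7.27 to 14.1 TPM (median 9.18) in heated Ken leaves, against 58.5, 60.5 and 57.05 TPM in Ken controls. It changed by -3.50 ± 0.29 (adjusted p = 9.56e-09). ADS3 (TRINITY_DN35922_c1_g1), which desaturates a chloroplast galactolipid, changed by -5.20 ± 0.51 (adjusted p = 2.55e-07).

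The summed level of the desaturase and galactolipid list did not follow these falls at 40/35 °C. It was 618.5 to 1115 TPM in MH 38 and 621.8 to 2057 TPM in MH 40, against 1564 to 1774 TPM in MH controls, so MH 40 overlapped the controls. In Ken it was 893 to 985.8 TPM in Ken 38 and 3467 to 4735 TPM in Ken 40, against 1303 to 1357 TPM in Ken controls, so Ken 40 lay above all controls. A pair of abundant members outside the common response had the highest heated means in Ken. DES2 (TRINITY_DN48862_c0_g1), a fatty acid desaturase, averaged 1145 TPM in heated Ken leaves against 104.9 TPM in Ken controls, and FAD12 (TRINITY_DN55278_c0_g2), a Delta(12)-acyl-lipid desaturase, 803.3 against 95.82 TPM. The log2 values of DES2 were -0.22 in MH 38, 1.07 in MH 40, 1.26 in Ken 38 and 3.83 in Ken 40, and those of FAD12 were -0.64 in MH 38, 0.51 in MH 40, 0.88 in Ken 38 and 3.56 in Ken 40. Both were chosen after their values were seen.

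Hormone genes moved in both directions. Of 23 tested abscisic acid genes 10 fell (43.5%) and 4 rose (17.4%), with a median of -1.14. ZEP (TRINITY_DN55556_c1_g1), which makes an early precursor of abscisic acid, had 0.99 to 11.8 TPM (median 2.72) in heated MH leaves, against 97.5, 103 and 87.1 TPM in MH controls, and 1.62 to 7.64 TPM (median 4.95) in heated Ken leaves, against 88.5, 101.16 and 88.1 TPM in Ken controls. This was a change of -5.23 ± 0.37 (adjusted p = 2.09e-09). CYP707A4 (TRINITY_DN38535_c0_g1), which breaks the hormone down, fell by 3.98 ± 0.36 (adjusted p = 3.53e-08), and the receptor PYL4 (TRINITY_DN58780_c2_g1) rose by 5.64 ± 0.70 (adjusted p = 3.76e-06). Of 25 ethylene genes 6 rose and 6 fell, with a median of 0.20 that was 0.95 under library totals. The summed level of the ethylene list lay above the controls in every heated library. It was 820.7 to 2533 TPM in heated MH leaves, against 468.3 to 610 TPM in MH controls. In heated Ken leaves it was 2030 to 3166 TPM, against 610 to 645.6 TPM in Ken controls. The receptor ETR2 (TRINITY_DN53619_c0_g1) rose by 2.35 ± 0.36 (adjusted p = 2.75e-05), and ACO (TRINITY_DN45441_c2_g2), the last enzyme of ethylene synthesis, had 0.49 to 1.53 TPM (median 0.805) in heated MH leaves, against 44.1, 24.9 and 28.4 TPM in MH controls, and 0.32 to 1.68 TPM (median 0.835) in heated Ken leaves, against 76.5, 71.97 and 74.5 TPM in Ken controls. Its pooled log2 change was -6.73 ± 0.42 (adjusted p = 3.57e-10). Auxin genes fell in 51 of 105 (48.6%) and rose in 6, and 68 of the 105 were lower at 40/35 than at 38/33 °C. The summed level of the auxin list was 1997 to 2159 TPM in Ken 38, against 1657 to 1793 TPM in Ken controls, and lay below the controls in MH 40 and Ken 40. Jasmonate genes fell in 15 of 40 (37.5%) and rose in 4, with a median of -0.75 that was -0.07 under library totals.

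Among transcription factor families NAC factors, several of which are known from leaf ageing, rose in 24 of 65 genes (36.9%) and fell in 11 (16.9%), with a median of 0.42 that was 1.14 under library totals. MYB factors, which include activators of phenylpropanoid genes, fell in 37 of 65 (56.9%) and rose in 5, with a median of -1.85, although their summed level in Ken 38 was 548.6 to 593.5 TPM against 478.7 to 508.5 TPM in Ken controls. AP2/ERF factors were mixed, with 18 of 74 rising and 16 falling and a median of -0.42 that was 0.28 under library totals. The AP2/ERF median was -0.51 in MH 38, -1.66 in MH 40, 0.97 in Ken 38 and 0.15 in Ken 40. DREB2B (TRINITY_DN38333_c2_g3), an AP2 factor of drought and heat responses, had 15.1 to 69.4 TPM (median 22.8) in heated MH leaves, against 0.37, 0.42 and 0.36 TPM in MH controls, and 48.3 to 80.3 TPM (median 71.3) in heated Ken leaves, against 7.64, 6.08 and 7.17 TPM in Ken controls. It rose by 3.95 ± 0.52 (adjusted p = 5.84e-06), and its rise was larger in MH, with a difference of 2.66 ± 0.30 (adjusted p = 3.65e-06). WRKY factors fell in 17 of 45 (37.8%) and rose in 5, with a median of -0.47 that was 0.20 under library totals.

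Clock genes follow the time of day, and the sources used here do not give the hour at which controls were sampled. Of 25 clock genes 7 fell and 4 rose, with a median of -0.77 that was -0.06 under library totals. PRR73 (TRINITY_DN62139_c0_g1), a repressor in the clock loop, changed by -1.72 ± 0.29 (adjusted p = 7.26e-05), with -1.55 in MH 38, -0.58 in MH 40, -2.77 in Ken 38 and -2.01 in Ken 40. In MH its TPM ran from 3.77 to 16.6 in heated leaves, against 12.3, 11.3 and 15.3 in controls, so only the scaled counts did not overlap. The MH 40 libraries, at 16.23, 16.58 and 15.65 TPM, lay above all MH controls. The direction in MH 40 thus differed between TPM and scaled counts, and the change of -0.58 was not called there (adjusted p = 0.0818). GI (TRINITY_DN63245_c1_g2), which links the clock to flowering, had 11.9 to 18.6 TPM (median 16.1) in heated MH leaves, against 42.9, 46.2 and 33.9 TPM in MH controls, and 1.04 to 20.5 TPM (median 10.4) in heated Ken leaves, against 60.2, 84.4 and 59.2 TPM in Ken controls. The log2 change was -2.69 ± 0.51 (adjusted p = 0.000373). At 40/35 °C it changed by -2.11 in MH and by -6.07 in Ken. PIF4 (TRINITY_DN48156_c0_g1), a growth factor of light and warmth signalling in Arabidopsis, fell by 3.02 ± 0.77 (adjusted p = 0.00362).

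Autophagy and proteasome genes were more often higher than lower at 40/35 than at 38/33 °C, beside 5151 higher and 8341 lower of all 29143 described genes. Of 28 autophagy genes 6 rose in common (21.4%) and 3 fell in common, with a median of 0.14 that was 0.86 under library totals, and 18 went higher in the last step and 1 went lower. ATG11 (TRINITY_DN57379_c0_g3), a scaffold of selective autophagy, had 41.5 to 205 TPM (median 94.7) in heated MH leaves, against 15.97, 10.7 and 17.8 TPM in MH controls, and 22.02 to 79.99 TPM (median 44.5) in heated Ken leaves, against 13.6, 12.3 and 10.8 TPM in Ken controls. It rose by 1.89 ± 0.34 (adjusted p = 0.000133), with 1.29 in MH 38, 2.79 in MH 40, 0.83 in Ken 38 and 2.07 in Ken 40. Of 83 proteasome genes 6 rose and 19 fell in common, with a median of -0.06 that was 0.65 under library totals, and 51 went higher in the last step and 6 lower. Cytosolic ribosomal proteins fell in 106 of 232 (45.7%) and rose in 13, with a median of -0.52 that was 0.18 under library totals.

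Retrotransposon proteins were the largest list among the described genes and rose in 755 of 1738 (43.4%) and fell in 85 (4.89%), with a median of 1.72, beside 1.62 for genes without a description. With genes that had no control count set at their bound the median was 1.52. Genes of DNA methylation and silencing, which keep such elements shut, had 17 of 79 rising and 18 falling, with a median of -0.14 that was 0.57 under library totals. The summed level of the silencing list was 955 to 1249 TPM (median 1030) in heated MH leaves, against 467, 529 and 535 TPM in MH controls, and 778 to 1005 TPM (median 901) in heated Ken leaves, against 448, 489 and 434 TPM in Ken controls. SGS3 (TRINITY_DN62717_c0_g1), a partner in making small RNAs, had 89.8 to 241 TPM (median 149.8) in heated MH leaves, against 2.15, 1.56 and 4.08 TPM in MH controls, and 36.6 to 226 TPM (median 129.9) in heated Ken leaves, against 8.35, 5.81 and 8.62 TPM in Ken controls. The pooled change was 4.37 ± 0.54 (adjusted p = 3.46e-06). CMT2 (TRINITY_DN53002_c0_g1), a DNA methyltransferase that acts on transposons in Arabidopsis, fell by 4.79 ± 0.29 (adjusted p = 2.35e-10). NBS-LRR disease resistance genes fell in 92 of 425 (21.6%), a smaller share than the 29.3% of all described genes, and rose in 18 (4.24%), with a median of -0.33 that was 0.38 under library totals, and 265 of them were lower at 40/35 than at 38/33 °C and 7 higher. The median was -0.67 in MH 38, -1.23 in MH 40, 0.73 in Ken 38 and -1.21 in Ken 40. The summed NBS-LRR level in Ken 38 was 10060 to 10740 TPM, above the 5604 to 7076 TPM of Ken controls, and in Ken 40 it was 2282 to 3336 TPM, below them.

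Some members of the common response differed in size between the materials. The rise of HSFB2A was smaller in MH, with a difference of -1.45 ± 0.34 (adjusted p = 0.00525) and that of BAG7, with a difference of -1.08 ± 0.26 (adjusted p = 0.00669). HSP90-6 rose more in MH, with a difference of 1.57 ± 0.26 (adjusted p = 0.000191), with 30.6 to 54.6 TPM (median 42.3) in heated MH leaves, against 4.57, 3.88 and 4.52 TPM in MH controls, and 19.6 to 31.9 TPM (median 21.8) in heated Ken leaves, against 8.23, 9.99 and 8.63 TPM in Ken controls. These differences of response were tested on the same 18 libraries, and a gene whose difference was not called has not been shown to respond alike.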

How the data were processed

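RNA from leaves was extracted with Trizol and sequenced on an Illumina platform, per the labels' protocols, and adapters were removed with cutadapt 1.9, per the submitters' processing notes. The deposited table of the authors gives an estimated count per assembled gene and library, with 89.8% to 96.7% of the values whole within 1e-06, and TPM values, read as such because the unlabelled columns sum to almost the same total in each library. Neither assembler nor quantifier is named in the sources used here. Of 158487 genes 39786 are described, 19498 of them by Swiss-Prot and 39509 by nr.

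Estimated counts were rounded. The test was edgeR's (version 4.0.16, under R 4.3.3), with filterByExpr (minimum count 10, minimum total 15), TMM factors and robust quasi-likelihood fits. The pooled contrast had a material and a heat term (15 residual degrees of freedom). Changes per heated group, the step between regimes and the difference between materials came from 6 group means (12 degrees of freedom). P-values were adjusted by the Benjamini-Hochberg method over all 70024 tested genes, at 0.05. The pipeline was run on simulated counts with 100 genes changed 2-fold and 100 changed 4-fold. It recovered 22 of the 2-fold and 77 of the 4-fold changes, with 4 false calls among 103. The simulated counts held no difference between materials or between the heated regimes. Only those genes were changed, as many up as down, with the spread of the 6 group means model, which is smaller than that of the pooled model. In the data the pooled contrast called 40800 of 70024 genes, with more rises than falls, so the recovery and the false calls need not hold there. The members and the 60 gene lists, text patterns on the descriptions of which the flower pattern matched no gene, were chosen with earlier results of these data known. Named genes were the 10 rises and 10 falls with the largest changes, ranked by the smallest of the 4 group changes, among described common genes without overlap in either material and at least 10 TPM on the higher side in both, and the member with the smallest adjusted p in each of 14 core lists. This gave 34 genes, and 39 further examples were chosen after their values were seen. Folds against groups without a count use a floor of 3 counts per library, which covers counting error only. Columns were matched to samples by library name. Alternatives were DESeq2 1.42.0, other scalings and filters, the replicate block, each library left out, stricter thresholds, described genes only and the 6 group means model. Tables and plots used pandas 2.3.3 and matplotlib 3.10.9 in Python 3.11.15.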

Additional observations from a re-analysis of the deposited data

Results flagged for a closer look

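The heat response was called different in size between the materials by the test of the difference itself in the genes given here. Differences are MH minus Ken on the log2 scale, with adjusted p from edgeR's quasi-likelihood test over all tested genes, beside 8.16% of all tested genes with MH above Ken and 7.96% with MH below.

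Among genes that rose, the response was smaller in MH for HSP18.2 (-4.001 ± 1.04, adjusted p = 0.021), the sugar carrier STP13 (-2.16 ± 0.54, adjusted p = 0.012), the stromal chaperone CHSP70 (-2.04 ± 0.51, adjusted p = 0.0122), the dehydrin COR410 (-1.50 ± 0.21, adjusted p = 2.99e-05), HSFB2A (-1.45 ± 0.34, adjusted p = 0.00525), the ethylene receptor ETR2 (-1.45 ± 0.33, adjusted p = 0.00521), BAG7 (-1.08 ± 0.26, adjusted p = 0.00669) and AERO1 (-0.82 ± 0.21, adjusted p = 0.00902). In all of these genes the mean TPM of the MH controls lay above that of the Ken controls. A smaller rise is thus not always a lower heated level. BAG7 averaged 36.5 TPM in heated MH and 29.2 TPM in heated Ken leaves, and AERO1 26.9 and 25.0 TPM. The uncharacterized protein LOC102663916 (TRINITY_DN54744_c1_g3) had a difference of -4.51 ± 1.37 (adjusted p = 0.0292). The size of that difference depends on the fit because no Ken control held a count of this gene. It had 4.92 to 34.02 TPM (median 16.6) in heated MH leaves, against 0, 0.63 and 0.32 TPM in MH controls, and 13.02 to 70.3 TPM (median 35.9) in heated Ken leaves, at least 54.0-fold above the floor of Ken controls.

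The rise was larger in MH for the abscisic acid receptor PYL4 (2.86 ± 0.81, adjusted p = 0.0227), DREB2B (2.66 ± 0.30, adjusted p = 3.65e-06), AGO16 (1.96 ± 0.50, adjusted p = 0.01), SGS3 (1.92 ± 0.40, adjusted p = 0.00373) and HSP90-6 (1.57 ± 0.26, adjusted p = 0.000191). PYL4 had 4 counts in all MH controls together, so its change in MH rests on few counts there. For DREB2B, AGO16, SGS3 and HSP90-6 the controls of MH lay below those of Ken.

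Among genes that fell, the fall was smaller in MH for 4CL2 (2.42 ± 0.75, adjusted p = 0.0381), GI (2.01 ± 0.26, adjusted p = 1.47e-05) and PRR73 (1.33 ± 0.35, adjusted p = 0.0143). It was larger in MH for CYP707A4 (-2.03 ± 0.42, adjusted p = 0.00165), SODCP (-1.37 ± 0.38, adjusted p = 0.0184) and FAD7 (-0.97 ± 0.29, adjusted p = 0.0242).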

How the results depend on the processing

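Under 30 alternatives, 33 of 34 named genes and 38 of 39 examples kept their sign and call, and the other 2 had no adjusted p in DESeq2 and kept theirs in the rest. Counts moved by more than 1.5 times as follows. Library totals gave 7744 pooled and 6819 common falls, 10815 described common rises and 4811 falls, 11060 rises and 2993 falls called in each heated group, and 3551 common falls that went lower at 40/35 °C. No filter on low counts gave 47531 pooled and 32712 common rises, and a minimum count of 50 gave 13947 and 11686. An adjusted p below 0.01 gave 17884 pooled rises, 3053 rises called in each group, 1723 common genes with a called difference between materials, and 2533 common rises and 3512 common falls that went on. Described genes only, with fewer genes tested, gave 7846 pooled, 6378 common and 2143 each-group rises and 1942 rises that went on. Without MH 38 replicate 3 and MH control replicate 3 together, 6535 common genes differed between materials.

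Leaving out 1 library at a time gave 20009 to 21969 common rises and 11210 to 12468 falls, 23860 to 28292 pooled rises and 12416 to 14608 falls, 4337 to 6437 rises and 5072 to 7037 falls called in each group, 5970 to 6397 described common rises and 8114 to 8860 falls, 4088 to 5645 rises and 4990 to 5686 falls that went on, and 2985 to 7300 differences between materials, the most without MH 38 replicate 3. The median of endoplasmic reticulum folding genes turned to 0.38 under library totals, 0.024 with TMM factors of the described genes and 0.047 without a filter. The HSP90 median turned to -0.08 in the model of 6 group means and ranged from -0.12 to 0.61 with 1 library left out. The causes were not tested.

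The replicate numbers do not pair the samples: over 45 pairs of libraries with the same number, deviations from group means correlated at -0.107 to 0.0786. With the replicate block there were 25826 pooled rises and 13051 falls, 22282 common rises and 11756 falls, 6360 and 8422 of them described, 5145 rises and 5713 falls called in each group, 5153 rises and 5382 falls that went on, 3986 differences between materials and an HSP90 median of -0.071. Depth limits the rises from low levels: 4443 of the tested genes had no count in any control or in any heated library.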

Other observations

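Growth, membrane transport and nuclear gene lists that the report leaves out are set beside all described genes, of which 21.8% rose and 29.3% fell in common. From 38/33 to 40/35 °C 5151 of the 29143 described genes went higher and 8341 went lower. Cellulose synthases fell in 30 of 61 tested genes (49.2%) and rose in 5, with a median log2 change of -1.23. Histones fell in 19 of 46 (41.3%) and rose in 4, with a median of -0.75 that was -0.049 under library totals, and 28 of them were lower at 40/35 than at 38/33 °C. Photoreceptor and light signalling genes fell in 9 of 22 (40.9%) and rose in 4, with a median of -0.81 that was -0.09 under library totals. Class III peroxidases fell in 5 of 25, a smaller share than over all described genes, and rose in 3. Their median was -0.73 in MH 38, -3.41 in MH 40, 0 in Ken 38 and -0.18 in Ken 40, and their summed level was above all controls in Ken and below them in MH. ABC transporters fell in 46 of 111 (41.4%) and rose in 13, with a median of -0.64 that was 0.03 under library totals, while their summed level was 2050 to 3361 TPM in heated MH leaves, against 1774 to 1965 TPM in MH controls, and 2436 to 2826 TPM in heated Ken leaves, against 1905 to 2208 TPM in Ken controls. Calcium sensors and kinases fell in 35 of 110 (31.8%) and rose in 16, with a median of -0.30 that was 0.42 under library totals. Aquaporins fell in 8 of 37 (21.6%) and rose in 2 (5.41%), both below the shares of all described genes, with a median of -0.34 that was 0.29 under library totals, and 20 of them were lower at 40/35 than at 38/33 °C. Their median was -0.33 in MH 38, -2.58 in MH 40, 0.51 in Ken 38 and 0.28 in Ken 40. Their summed level was 2675 to 8818 TPM in MH 38 and 940.8 to 1174 TPM in MH 40, against 2930 to 5469 TPM in MH controls, and 3976 to 7863 TPM in heated Ken leaves, against 1754 to 2066 TPM in Ken controls. The materials thus lay on opposite sides of their controls at 40/35 °C, a difference of the list that was not tested. Glutathione S-transferases (7 of 36 rising, 10 falling), sugar transporters (8 of 46 and 11), splicing genes (24 of 139 and 35) and cyclins and cell division genes (5 of 42 and 10) had medians between -0.25 and -0.04 with TMM factors and between 0.46 and 0.68 with library totals. Ubiquitin genes rose in 19 of 85 and fell in 26, with a median of 0.04 that was 0.74 under library totals, and terpene synthases rose in 2 of 7 and fell in 3, with a median of -0.43 that was 0.22.

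Other values concern the make-up of the libraries. Genes whose best Swiss-Prot match is animal rose in 277 of 1313 (21.1%) and fell in 319 (24.3%), close to all described genes. Those with a fungal best match rose in 141 of 446 (31.6%) and fell in 67. Their summed level was 9584 to 13430 TPM (median 11280) in heated MH leaves, against 6439, 9092 and 6015 TPM in MH controls, and 8682 to 29290 TPM (median 10210) in heated Ken leaves, against 5894, 8608 and 6186 TPM in Ken controls. Those with a bacterial best match rose in 15 of 158 and fell in 84 (53.2%). A best match names the nearest database entry and not the organism of the RNA. Animal-like tissue markers rose in 1 of 7 and fell in 1, and dividing cell markers rose in 1 of 9 and fell in 1. The named falls without a known role were hypothetical protein ZEAMMB73_Zm00001d007196 (TRINITY_DN60355_c0_g1), which changed by -8.90 ± 0.59 (adjusted p = 1.67e-09), and uncharacterized protein LOC109713138 (TRINITY_DN57721_c0_g3), which changed by -8.34 ± 0.71 (adjusted p = 8.77e-08). The abundant 17.8 kDa class I heat shock protein (TRINITY_DN39874_c0_g1) rose by 2.44 ± 0.52 (adjusted p = 0.000891), with 548 to 4289 TPM (median 1961) in heated MH leaves, against 406, 178 and 865 TPM in MH controls, and 7544 to 13892 TPM (median 9587) in heated Ken leaves, against 444, 336 and 284 TPM in Ken controls. Its MH libraries overlapped between heated and control leaves.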
